A study of Mus musculus with 14 samples.

Results

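The genes described here are 10 brakes and stress sensors of the mouse cell cycle: the CDK inhibitor genes Cdkn1a, Cdkn1b, Cdkn2a, Cdkn2b and Cdkn2c, and the p53 target genes Mdm2, Ccng1, Trp53inp1, Sesn2 and Bax. They were chosen by name, all 10 were found, and they are 10 of the 35449 genes to which reads were assigned. Their transcript 3′ ends were counted in 14 primary cell lines started from mouse embryos at E13.5, with 1 library for each line.

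There were 3 KO neurosphere lines, 3 WT neurosphere lines, 5 KO MEF lines and 3 WT MEF lines. KO and WT are the genotypes as labelled, and the series title names a knockout-first targeting of H3f3a; no further detail of the allele was used here. H3f3a is one of the genes for histone H3.3, and H3f3b is the other. Neurospheres, which are floating cultures of neural stem and precursor cells, came from the head. MEFs, embryonic fibroblasts, came from the body without its internal organs. No line was treated. The design text calls the lines independent, and their passage number is not stated.

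A cell divides when cyclins switch on cyclin-dependent kinases (CDKs), which phosphorylate the retinoblastoma protein and release E2F factors. Proteins of the CIP/KIP family (p21 from Cdkn1a, p27 from Cdkn1b) bind cyclin and CDK together, while INK4 proteins (p16, p15 and p18 from Cdkn2a, Cdkn2b and Cdkn2c) bind CDK4 and CDK6. The transcription factor p53, encoded by Trp53, is stabilised by stress and switches on Cdkn1a, Ccng1, Mdm2 and other targets, and the MDM2 protein in turn marks p53 for destruction. In cultured fibroblasts, Cdkn2a and Cdkn1a are known for the arrest that limits the life of primary lines, and in the developing brain CDK inhibitors act as neural precursors leave the cell cycle.

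Close matches to the DNA sequence that p53 recognises were found in promoter windows of 2 members. RefSeq promoter windows (GRCm38.p6, from 250 bases before to 50 bases after each annotated start) were found for 9 of the 10 members, and not for Trp53inp1. Both strands were searched for the consensus p53 response element without a spacer, which is 20 bases long, and up to 1 mismatch was accepted. These settings were chosen after the sequences had been read. DNA outside the windows was not searched, so members without a match may hold one elsewhere. Of 32851 windows of all genes, 29 (0.0883%) held such a match, among them those of Cdkn1a and Ccng1, printed here with the matching bases in capitals.
Cdkn1a, chr17:29090878-29090978, plus strand: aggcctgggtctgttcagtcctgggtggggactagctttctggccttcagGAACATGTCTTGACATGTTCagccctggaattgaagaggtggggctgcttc
Ccng1, chr11:40755412-40755531, minus strand: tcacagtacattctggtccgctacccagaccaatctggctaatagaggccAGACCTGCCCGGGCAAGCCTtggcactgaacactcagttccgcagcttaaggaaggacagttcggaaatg

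The match in Cdkn1a began 51 bases before the RefSeq start of its upstream first exon, and 2853 bases before the start of Cdkn1a-205, the transcript to which most of its reads were assigned over all libraries. In Ccng1 the match began 195 bases before the RefSeq start. A match describes the letters only, and the libraries hold no measurement of p53 binding.

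H3f3a was the check of the labels. It had 26.3 to 70.9 CPM (counts scaled to library size with TMM factors over all libraries) in KO neurospheres, against 1970 to 2417 CPM in WT neurospheres. In KO MEFs it had 7.29 to 18.8 CPM, against 847 to 1427 CPM in WT MEFs. Every KO line was below every WT line, with a log2 difference of -5.37 (SE 0.41) in neurospheres and -6.09 (SE 0.32) in MEFs and edgeR adjusted p-values of 0.00754 and 0.000115. Counts assigned to genes ran from 1669432 to 3296203 for each library, and mitochondrial transcripts took 12.9% to 16.8% of counts in neurospheres and 5.27% to 6.15% in MEFs. Markers fitted the labelled cell types: 10 neural stem cell genes summed to 10289 to 14643 CPM in neurospheres and 102 to 340 CPM in MEFs, and 10 fibroblast genes to 63.5 to 201 CPM in neurospheres and 14553 to 21924 CPM in MEFs. Olig2 had 0 counts in all MEFs and Twist2 in all neurospheres. Macrophage and blood genes summed to 19.4 to 90.8 CPM in KO MEFs, 64.4 to 186 CPM in WT MEFs and at most 2.48 CPM in neurospheres.

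**Figure D1:**
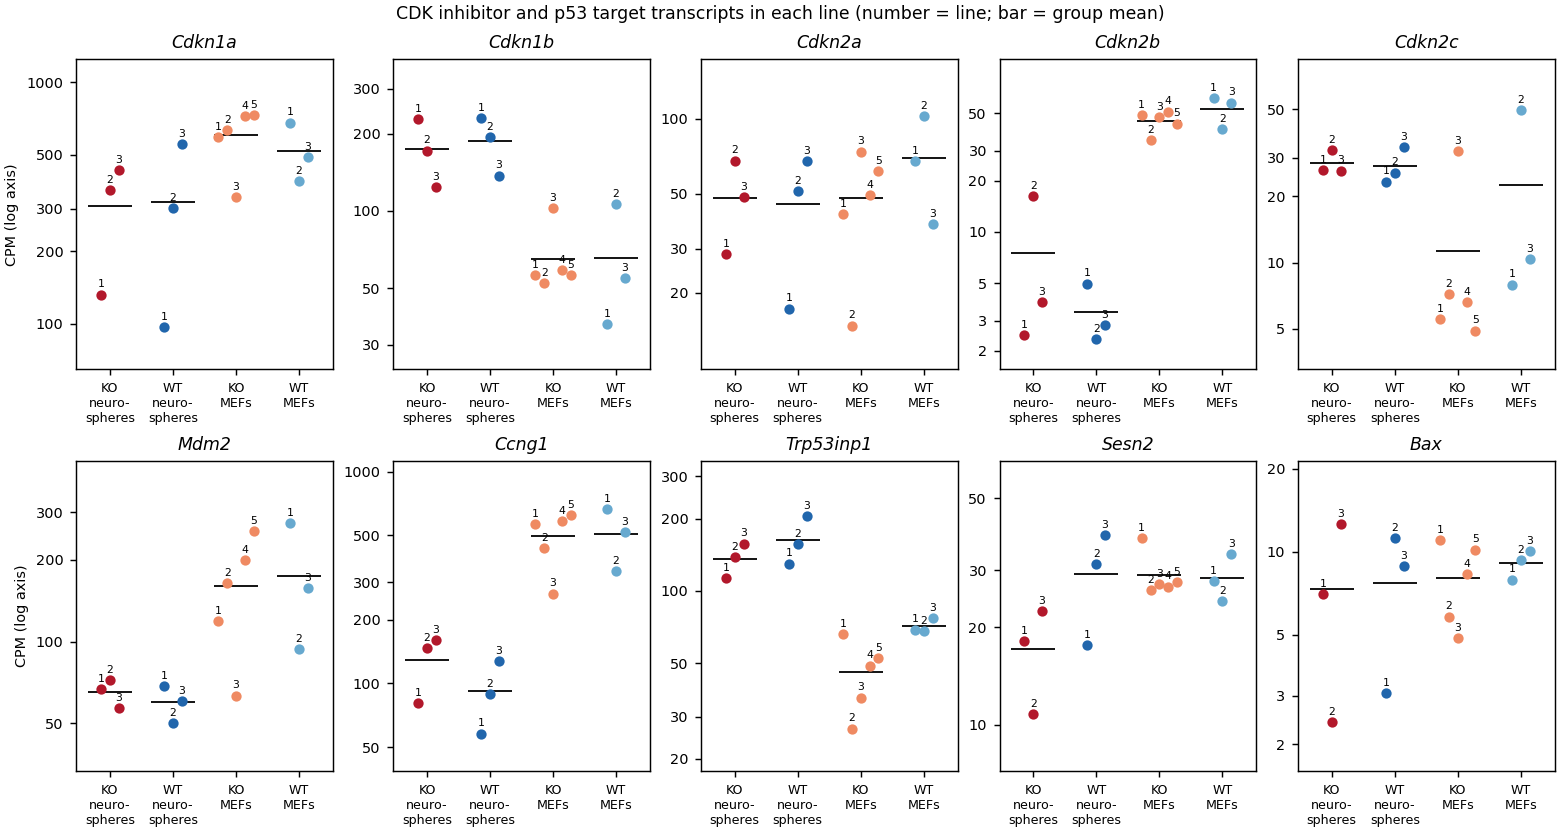
CPM of each of the 10 genes (log axis) in KO neurospheres, WT neurospheres, KO MEFs and WT MEFs; each point is 1 line, the digit beside it is the number of the line, and the bar is the group mean. Ccng1 lies between 57.8 and 160 CPM in the 6 neurosphere lines and between 265 and 664 CPM in the 8 MEF lines, while KO and WT lines of a cell type overlap in all genes except Trp53inp1 in MEFs.

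Cdkn2b, Ccng1 and Mdm2 were lower, and Cdkn1b and Trp53inp1 higher, in neurospheres than in MEFs, among KO lines and among WT lines alike. Among WT lines 5 of the 10 members passed the edgeR test (2 higher and 3 lower in neurospheres), where 41.6% of the 11080 genes tested passed (20.8% higher and 20.8% lower). Among KO lines 6 passed (2 higher and 4 lower), where 51.6% of 11413 genes did (25.4% higher and 26.2% lower). All 10 members passed the filter on low counts in every comparison, and the shares of members that passed, 50% and 60%, were close to those backgrounds. By whether the groups overlap in CPM, 5 members were separate among KO lines (background 49.8%) and 5 among WT lines (background 57.1%). In these bulk libraries, a lower level cannot be told apart from fewer cells that express the gene.

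Cdkn1b (ENSMUSG00000003031.14, chr6:134920401-134925513, plus strand, GRCm38) encodes p27, an inhibitor that accumulates in resting cells. Its level was 229, 172 and 124 CPM in KO neurospheres 1 to 3, against 56.3, 52.1, 102.5, 58.6 and 56.2 CPM in KO MEFs 1 to 5. Levels in WT neurospheres 1 to 3 were 230.2, 194 and 137 CPM, against 36.1, 106 and 54.6 CPM in WT MEFs 1 to 3. Every neurosphere line was above every MEF line. The log2 difference was 1.45 (SE 0.27, edgeR adjusted p = 0.00174) among KO lines and 1.54 (SE 0.41, adjusted p = 0.0201) among WT lines. Among WT lines the call ended when WT MEFs 1, WT MEFs 3, WT neurospheres 1 or WT neurospheres 2 was left out, with adjusted p-values of 0.0518 to 0.0758 and a log2 difference of at least 1.23.

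Cdkn1a (ENSMUSG00000023067.14, chr17:29090976-29100727, plus strand) encodes p21, the CDK inhibitor that p53 switches on. It had 132, 359 and 431 CPM in KO neurospheres, against 593, 636, 334, 722 and 733 CPM in KO MEFs. WT neurospheres had 97.3, 302 and 555 CPM, against 680, 389 and 491 CPM in WT MEFs. Line 1 was the lowest neurosphere line of its genotype, in KO and in WT, and neurospheres and MEFs overlapped in both genotypes. The log2 difference was -0.95 (SE 0.38, edgeR adjusted p = 0.0624) among KO lines and -0.69 (SE 0.57, adjusted p = 0.361) among WT lines. It passed among KO lines with DESeq2 (adjusted p = 0.0341), without KO MEFs 3 (edgeR adjusted p = 0.0251) and without KO neurospheres 3 (edgeR adjusted p = 0.0391). KO MEFs 3 was the lowest KO MEF line and KO neurospheres 3 the highest KO neurosphere line. Leaving out either widens the gap by itself. With 1 line left out the value ran from -1.27 to -0.59 among KO lines and from -1.35 to -0.27 among WT lines, in each case smallest without neurosphere line 1 and largest without neurosphere line 3.

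The INK4 genes did not move as a family between the cell types. Cdkn2a and Cdkn2b are neighbours on chromosome 4, at 89274471 to 89294653 (ENSMUSG00000044303.6) and 89306299 to 89311039 (ENSMUSG00000073802.5), both on the minus strand, and differed in pattern. Cdkn2b, whose product p15 is known to answer TGF-β, had 2.48, 16.2 and 3.85 CPM in KO neurospheres, against 48.7, 34.6, 47.1, 51.0 and 43.4 CPM in KO MEFs. Cdkn2b was at 4.98, 2.34 and 2.84 CPM in WT neurospheres, against 61.1, 40.3 and 57.6 CPM in WT MEFs. All neurosphere lines were below all MEF lines, and KO neurospheres 2 was the highest of the neurospheres. The log2 difference was -2.64 (SE 0.53, edgeR adjusted p = 0.0024) among KO lines and -3.92 (SE 0.37, adjusted p = 0.000302) among WT lines, which is 6.24-fold and 15.1-fold lower. Leaving out 1 line moved the value among KO lines to between -3.76, without KO neurospheres 2, and -2.204, without KO neurospheres 1, and it passed each time. The 3 WT neurosphere libraries held 26 Cdkn2b counts in all, so that the size of its fold rests on few reads.

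Cdkn2a had 28.5, 67.9 and 48.3 CPM in KO neurospheres, against 41.4, 14.7, 73.8, 49.3 and 61.9 CPM in KO MEFs. Cdkn2a was at 17.2, 51.4 and 67.9 CPM in WT neurospheres, against 67.9, 102.5 and 37.8 CPM in WT MEFs. Neurospheres and MEFs overlapped in both genotypes, and KO MEFs 2 was lowest of all lines. The log2 differences of 0.02 (SE 0.46, 95% interval -1.011 to 1.0496) among KO lines and -0.58 (SE 0.54, interval -1.85 to 0.68) among WT lines did not pass. The locus makes p16 and, from a start further upstream, p19Arf, a protein that holds MDM2 off p53. The transcripts Cdkn2a-201 and Cdkn2a-202, which start at 89282192 and 89294653, share most of the final exon that 3′ tags read. That exon runs from 89274471 to 89274774 in Cdkn2a-201 and from 89274541 to 89274774 in Cdkn2a-202. The bases at the 3′ end are thus annotated for Cdkn2a-201 alone. Whether p19Arf transcripts also end there was not tested, so these libraries do not tell p16 and p19Arf transcripts apart.

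Cdkn2c (ENSMUSG00000028551.14, chr4:109660876-109667189, minus strand), for p18, had 26.4, 32.5 and 26.3 CPM in KO neurospheres, against 5.52, 7.20, 32.1, 6.59 and 4.91 CPM in KO MEFs. In WT neurospheres it had 23.4, 25.7 and 33.4 CPM, against 7.94, 49.6 and 10.4 CPM in WT MEFs. KO MEFs 3 and WT MEFs 2 were as high as neurospheres, or higher, and the other 6 MEF lines were below every neurosphere line. With all lines the log2 difference was 1.38 (SE 0.59, edgeR adjusted p = 0.0754) among KO lines and 0.31 (SE 0.67, adjusted p = 0.735) among WT lines. Without KO MEFs 3 it was 2.25 among KO lines (edgeR adjusted p = 7.27e-05), and without WT MEFs 2 it was 1.575 among WT lines (edgeR adjusted p = 0.00757).

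Ccng1 (ENSMUSG00000020326.7, chr11:40748552-40755311, minus strand), whose product cyclin G1 takes part in the loop between p53 and MDM2, was lower in neurospheres in both genotypes. It had 81.0, 147 and 160 CPM in KO neurospheres, against 565, 434, 265, 584 and 623 CPM in KO MEFs. WT neurospheres had 57.8, 89.2 and 128 CPM, against 664, 340.2 and 519 CPM in WT MEFs. All 6 neurosphere lines were below all 8 MEF lines. It was 3.77-fold lower among KO lines (log2 -1.91, SE 0.33, edgeR adjusted p = 0.00111) and 5.45-fold lower among WT lines (log2 -2.45, SE 0.37, adjusted p = 0.00187).

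Mdm2 (ENSMUSG00000020184.15, chr10:117688875-117710758, minus strand) encodes the ubiquitin ligase that degrades p53 and is itself a p53 target. It had 66.9, 72.1 and 56.7 CPM in KO neurospheres, against 119, 164, 63.2, 199 and 256 CPM in KO MEFs. Mdm2 was at 68.6, 49.99 and 60.4 CPM in WT neurospheres, against 273, 93.5 and 157 CPM in WT MEFs. Neurospheres kept within a narrow range, from 49.99 to 72.1 CPM, and KO MEFs 3 was the one MEF line inside it. The log2 difference was -1.28 (SE 0.39, edgeR adjusted p = 0.0217) among KO lines and -1.53 (SE 0.39, adjusted p = 0.016) among WT lines. The call ended in the WT lines without WT neurospheres 2 or 3 (edgeR adjusted p = 0.060 and 0.051), and in the KO lines without KO neurospheres 1 or 3 (0.0631 and 0.0705).

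Trp53inp1 (ENSMUSG00000028211.11, chr4:11156431-11174379, plus strand), a stress gene whose product acts in p53 signalling and autophagy, went the other way. It had 113, 138 and 157 CPM in KO neurospheres, against 66.3, 26.7, 35.9, 48.9 and 52.5 CPM in KO MEFs. WT neurospheres had 129.8, 156 and 205 CPM, against 69.1, 68.0 and 76.9 CPM in WT MEFs. Every neurosphere line was above every MEF line. It was 2.99-fold higher among KO lines (log2 1.58, SE 0.27, edgeR adjusted p = 0.00103) and 2.33-fold higher among WT lines (log2 1.22, SE 0.23, adjusted p = 0.0045).

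Sesn2 (ENSMUSG00000028893.8, chr4:132492032-132510501, minus strand), for sestrin 2, which restrains mTORC1 in stressed cells, had 18.2, 10.8 and 22.4 CPM in KO neurospheres, against 37.6, 26.0, 27.2, 26.7 and 27.5 CPM in KO MEFs. In WT neurospheres it had 17.6, 31.3 and 38.4 CPM, against 27.8, 24.1 and 33.5 CPM in WT MEFs. The KO groups did not overlap and the WT groups did. Among KO lines it was lower in neurospheres by edgeR (log2 -0.72, SE 0.27, adjusted p = 0.048), but the call ended in 7 of the 8 fits that left out 1 line (adjusted p = 0.0561 to 0.152), all but that without KO neurospheres 3. Among WT lines the log2 difference was 0.05 (SE 0.34, adjusted p = 0.913). Bax (ENSMUSG00000003873.11, chr7:45461697-45466898, minus strand), for the protein that opens mitochondria in apoptosis, was low throughout, with 7.02, 2.40 and 12.6 CPM in KO neurospheres and 3.06, 11.2 and 8.89 CPM in WT neurospheres. It had 4.86 to 11.05 CPM in KO MEFs and 7.94 to 10.1 CPM in WT MEFs. It had 4 to 36 counts in a library, and its intervals were wide. The log2 difference of neurospheres over MEFs was -0.08 (interval -1.19 to 1.03) among KO lines and -0.23 (interval -1.38 to 0.92) among WT lines.

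**Figure D2:**
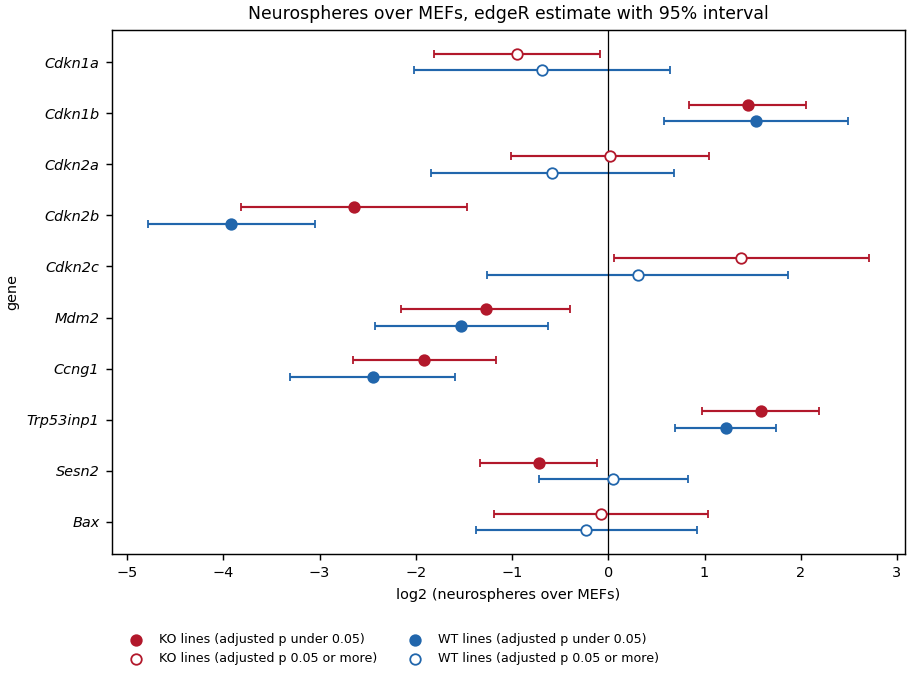
The log2 difference of neurospheres over MEFs for each gene by edgeR, among KO lines (red) and among WT lines (blue); bars are 95% intervals and filled points have an adjusted p under 0.05. Cdkn2b lies lowest, at -2.64 among KO lines and -3.92 among WT lines, and Cdkn1b and Trp53inp1 lie to the right of 0.

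Trp53 itself was lower in neurospheres, at 18.2 ± 4.34 CPM in KO neurospheres against 43.9 ± 9.92 CPM in KO MEFs (SD, n = 3 and 5; log2 -1.25, edgeR adjusted p = 0.00443). In WT neurospheres it was at 19.1 ± 2.21 CPM, against 46.3 ± 14.8 CPM in WT MEFs (SD, n = 3 each; log2 -1.26, edgeR adjusted p = 0.0147). Of 16 genes for p53 and its regulators tested among KO lines, 3 were higher and 5 lower, and of 15 tested among WT lines, 1 was higher and 1 lower. The share called was near that of all genes (51.6%) among KO lines and below it (41.6%) among WT lines. Higher ones were Bmi1 (log2 1.301), which represses Cdkn2a, Trp53bp1 (0.81) and Mdm4 (0.60), an MDM2 relative that inhibits p53, among KO lines, and the kinase gene Hipk2 (1.03) among WT lines. The lower ones beside Trp53, all among KO lines, were Chek1 (-1.55), Rpl5 (-0.88), Rpl11 (-0.70) and Tbx3, which had 0 counts in KO neurospheres and was at least 52.8-fold lower, taking 3 counts over the group as its floor.

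Other p53 targets were called in both directions, where 51.6% of all genes were called among KO lines and 41.6% among WT lines. Of 48 tested among KO lines 11 were higher and 18 lower, with a median log2 difference of -0.44, and of 42 among WT lines 8 were higher and 14 lower, with a median of -0.82. The medians over all genes tested were -0.01 and 0.02. Within neurospheres 38 of the 50 listed passed the filter on low counts, and within MEFs 45 did. For genes that passed through a single cell type, the direction was largely set by the filter. Among WT lines the largest on the higher side were Trp53i11 (log2 5.01), the sestrin genes Sesn3 (3.84) and Sesn1 (2.24), Abhd4 (3.00), the DNA repair gene Ddb2 (2.84) and Zfp365 (2.23). Lower were the death receptor gene Tnfrsf10b (-4.16), Pmaip1 (-3.94), which encodes NOXA, Plk3 (-3.85), Gtse1 (-2.95) and the polymerase gene Polk (-2.40), and also Perp, at 0.128 CPM in WT neurospheres against 8.62 CPM in WT MEFs. Among KO lines Trp53i11 (4.99), Tgfa (4.12), Sesn3 (4.01), Abhd4 (3.67), Sesn1 (3.49) and Ddb2 (2.31) led the higher side. Tnfrsf10b (-6.29), Dram1 (-4.59), Pmaip1 (-3.90), Ada (-3.73) and Plk3 (-3.19) led the lower side, with Cd80, which had 0.117 CPM in KO neurospheres against 5.12 CPM in KO MEFs.

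Of the cell cycle machinery that the inhibitors act on, Rb1 and Rbl2 were called higher in neurospheres and several cyclin and E2F genes lower. Of 27 CDK, cyclin, Rb and E2F genes tested among KO lines, 2 were higher and 9 lower (median log2 -1.26), and of 26 among WT lines 2 were higher and 14 lower (median -1.65). Of all genes 26.2% were called lower among KO lines and 20.8% among WT lines, and 51.6% and 41.6% in either direction. Among KO lines the share of the list called in either direction was below that background. The share called lower was above its background in both genotypes. Rb1, for the retinoblastoma protein, was higher by 2.59 among KO lines and 2.13 among WT lines, and its relative Rbl2 by 1.87 among KO lines and 1.23 among WT lines. The lower ones were led among KO lines by Ccnb2 (-3.03), Ccne2 (-2.87), Cks1b (-2.56), Ccne1 (-2.18), E2f7 (-2.03) and Ccnd3 (-1.87), and among WT lines by Ccne1 (-3.15), Ccne2 (-2.85), Cdk1 (-2.60), Cks1b (-2.47), Ccnb2 (-2.30) and E2f8 (-2.17). Of 30 proliferation genes 0 were higher in either genotype, 10 were lower among KO lines and 21 among WT lines, beside the same 26.2% and 20.8% of all genes. Rrm2 (-2.63 and -2.88) and Aurka (-2.42 and -2.87) led both, and 30 of 30 had a negative log2 difference in each. Their sum was 289 to 3431 CPM in KO neurospheres and 3434 to 5548 CPM in KO MEFs. In WT lines it was 551 to 1806 CPM in neurospheres and 3221 to 5212 CPM in MEFs. The part of proliferation in the members' differences was not tested.

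The remaining CDK inhibitor genes were Cdkn1c, for p57, and Cdkn2d, for p19Ink4d. Cdkn1c was lower in neurospheres, at 0.655 ± 0.475 CPM against 38.7 ± 13.6 CPM in MEFs among KO lines (log2 -5.91, edgeR adjusted p = 2.5e-05) and 2.48 ± 3.52 CPM against 37.4 ± 8.00 CPM among WT lines (log2 -3.86, adjusted p = 0.0124). Cdkn2d passed in neither genotype. Of genes tied to senescence and its secreted factors, 1 was higher and 9 lower of 15 tested among KO lines, and 1 was higher and 7 lower of 13 among WT lines, where 51.6% and 41.6% of all genes were called in either direction. The higher one was Igfbp3 (log2 2.56 among KO lines and 3.296 among WT lines). Plaur and Cxcl1 had 0 counts in all neurospheres and were among those lower in both genotypes. Within neurospheres 6 of the 15 senescence genes passed the filter on low counts, and within MEFs 15 did. Genes that passed through MEFs alone, as Cdkn1c did, could hardly come out other than lower. Their direction was largely set by the filter.

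The loss of H3f3a was set against WT within each cell type, which is the question of the series title at the level of these genes. In neurospheres 0 of the 10 members passed the edgeR test, where 1 of 10624 genes (0.00941%) did, and 0 had an unadjusted p under 0.05 by edgeR or by DESeq2. In MEFs 0 passed as well, where 1 of 10785 genes (0.00927%) did, and 1 member, Trp53inp1, had an unadjusted p under 0.05 by edgeR and 1 by DESeq2. Over all genes, 227 in neurospheres and 175 in MEFs had an edgeR p under 0.05 before adjustment, and DESeq2 called 7 and 1 after it. The members' median log2 difference of KO over WT was 0.02 in neurospheres, with 5 of 10 above 0, and -0.15 in MEFs, with 2 of 10 above 0, beside 0.01 and -0.0013 over all genes. With 0 members past the test these signs are a description of the lines at hand.

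Trp53inp1 in MEFs was the one member that separated KO from WT lines in a cell type. Its KO MEFs, at 46.1 ± 15.3 CPM (SD, n = 5), all lay below its WT MEFs, at 71.3 ± 4.85 CPM (SD, n = 3). Such separation downward was seen in 0.936% of all genes tested in MEFs. The log2 difference was -0.63 (SE 0.26, 95% interval -1.22 to -0.05), with an unadjusted p of 0.0367 and an adjusted p of 1 by edgeR, so it did not pass. In neurospheres it was -0.25 (SE 0.26, interval -0.83 to 0.34), and KO and WT lines overlapped, as they did there for 10 of 10 members, where 7.20% of genes did not overlap (3.34% higher and 3.86% lower in KO).

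For the CDK inhibitors the intervals show what these lines leave possible. Cdkn1a averaged 307 ± 156 CPM in KO neurospheres and 318 ± 229 CPM in WT neurospheres (SD, n = 3 each), a log2 difference of -0.03 (interval -1.65 to 1.58). In MEFs it averaged 603 ± 162 CPM in KO lines and 520 ± 148 CPM in WT lines (SD, n = 5 and 3), with a difference of 0.21 (interval -0.39 to 0.81). A change of Cdkn1a by more than 2-fold was therefore outside the interval in MEFs and inside it in neurospheres. Cdkn1b differed by -0.09 (interval -0.74 to 0.56) in neurospheres and by -0.02 (interval -0.83 to 0.79) in MEFs.

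Cdkn2a averaged 48.3 ± 19.7 CPM in KO neurospheres and 45.5 ± 25.8 CPM in WT neurospheres (SD, n = 3 each), and 48.2 ± 22.4 CPM in KO MEFs and 69.4 ± 32.4 CPM in WT MEFs (SD, n = 5 and 3). The log2 differences of 0.09 (SE 0.52) and -0.53 (SE 0.48) did not pass. Cdkn2b had the widest estimate in neurospheres, 1.099 (interval -0.65 to 2.85), and without KO neurospheres 2, the line at 16.2 CPM, it was -0.08. In MEFs Cdkn2b differed by -0.24 (interval -0.67 to 0.19). Cdkn2c had the widest estimate in MEFs, -1.04 (interval -2.90 to 0.81), which ran from -1.90 without KO MEFs 3 to 0.26 without WT MEFs 2. Its estimate in neurospheres was 0.05 (interval -0.57 to 0.68).

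Among the p53 targets, Mdm2 differed by 0.14 (interval -0.38 to 0.66) in neurospheres and by -0.13 (interval -1.18 to 0.93) in MEFs. Ccng1 averaged 129 ± 42.3 CPM in KO neurospheres and 91.6 ± 34.96 CPM in WT neurospheres, a difference of 0.51 (interval -0.34 to 1.36), and differed by -0.04 (interval -0.70 to 0.62) in MEFs. Sesn2 averaged 17.1 ± 5.86 CPM in KO neurospheres and 29.1 ± 10.6 CPM in WT neurospheres (SD, n = 3 each). Its difference there was -0.74 (interval -1.65 to 0.17) and in MEFs 0.02 (interval -0.42 to 0.47). Bax differed by -0.01 (interval -1.56 to 1.53) in neurospheres and by -0.18 (interval -0.92 to 0.56) in MEFs.

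**Figure D3:**
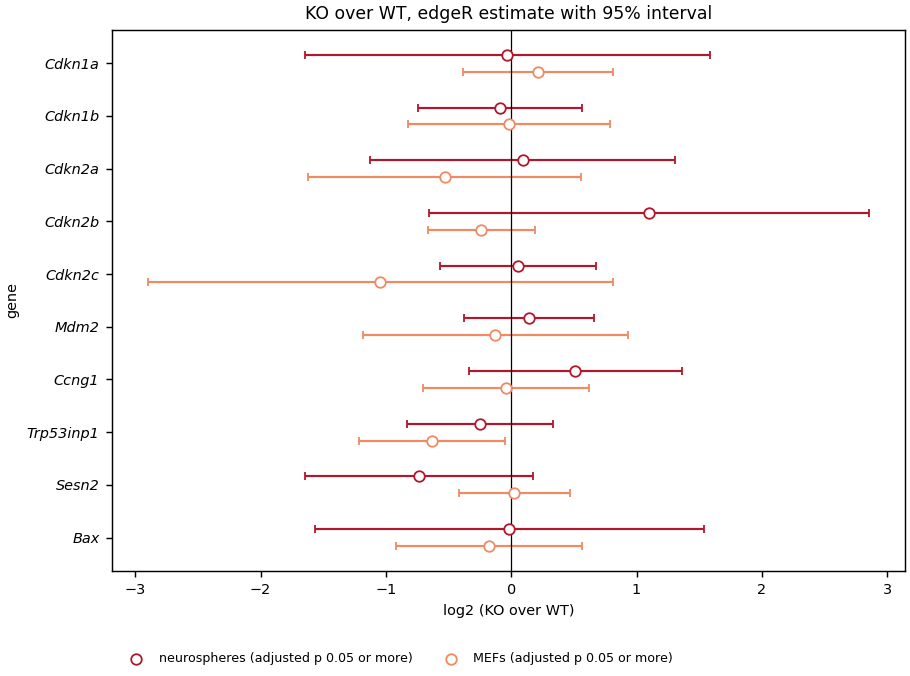
The log2 difference of KO over WT for each gene by edgeR in neurospheres (dark red) and in MEFs (orange); bars are 95% intervals and open points have an adjusted p of 0.05 or more. All points are open, and the interval of Trp53inp1 in MEFs, from -1.22 to -0.05, is the one that does not reach 0.

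Whether the KO difference itself depended on the cell type was tested as an interaction over all 14 libraries. Of the 10 members 0 passed by edgeR, where 0 of 12113 genes (0%) did, 0 had an unadjusted p under 0.05 by edgeR or DESeq2, and over all genes 366 did by edgeR. The largest interactions were 1.28 for Cdkn2b (SE 0.69, interval -0.20 to 2.75) and 1.08 for Cdkn2c (SE 0.98, interval -1.03 to 3.20), and for Sesn2 the value was -0.77 (SE 0.42, interval -1.68 to 0.13). These comparisons and those between cell types share libraries.

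The rest of the p53 and cell cycle genes gave the same count of calls: of each of the 6 lists, 0 genes passed in KO against WT in neurospheres or in MEFs, or in the interaction, by edgeR. Of other p53 targets, 26 of 38 had a positive log2 difference in neurospheres (median 0.15) and 14 of 45 in MEFs (median -0.09). Those with the smallest unadjusted p by edgeR were Polk (log2 0.80), Ppm1d (0.51) and Tnfaip8 (0.81) in neurospheres, each with an adjusted p of 0.999. In MEFs they were Cd80 (-1.58), Tap1 (-0.96) and Dram1 (0.77), each with an adjusted p of 1. Of 8 macrophage and blood genes tested, 8 had a negative log2 difference in MEFs as well, with a median of -1.19. Cd80 is also a gene of such cells, and their part in its value was not tested. Proliferation genes had a positive difference in 24 of 28 cases in neurospheres (median 0.35) and in 21 of 30 in MEFs (median 0.05). The sum of the listed proliferation genes was 763, 289 and 3431 CPM in KO neurospheres 1 to 3. It was 551, 1375 and 1806 CPM in WT neurospheres 1 to 3. KO lines were thus both the lowest and the highest neurosphere line, and the signs do not describe the KO lines alike.

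In the other lists the genes with the smallest p-values stayed short of the threshold too. In neurospheres they included Mdm4 (log2 0.36), Trp53bp1 (0.36) and Bmi1 (0.21) among the regulators, and Rbl2 (0.83), Cdk2 (0.57) and E2f5 (0.37) among CDK, cyclin, Rb and E2F genes. They also included Mcm6 (1.097), Mcm4 (0.88) and Mcm3 (0.99) among proliferation genes, and Igfbp5 (1.85), Igfbp3 (-1.31) and Hmgb1 (-0.19) among senescence genes. In MEFs they were Atr (-0.34), Tbx3 (0.44) and Hipk2 (0.36) among regulators, and E2f5 (0.42), E2f8 (-0.51) and Rbl1 (-0.50) among cell cycle genes. They were Cenpe (0.30), Rrm1 (0.26) and Tpx2 (0.23) among proliferation genes, and Lmnb1 (0.65, edgeR adjusted p of 1), Igfbp3 (-0.57) and Hmgb2 (-0.21) among senescence genes. Lmnb1 encodes lamin B1, which is lost in senescent cells, and averaged 157 ± 50.1 CPM in KO MEFs and 99.7 ± 7.61 CPM in WT MEFs (SD, n = 5 and 3). Of 15 senescence genes tested in MEFs, 11 had a positive log2 difference and 4 a negative one (median 0.10). The list mixes secreted factors with Lmnb1, so its signs have no single reading, and senescence was not tested. Of the remaining CDK inhibitors, Cdkn2d differed by 0.20 in neurospheres and by -0.56 in MEFs, and Cdkn1c by 0.05 in MEFs.

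Within a genotype the lines of a cell type were spread widely in these genes. In MEFs, 2 lines stood apart, 1 of either genotype: KO MEFs 3 and WT MEFs 2. Both were below the other 6 MEF lines in Cdkn1a, Mdm2 and Ccng1, and both were above them in Cdkn1b, Cdkn2a and Cdkn2c. For Cdkn1a they had 334 and 389 CPM, against 491 to 733 CPM in the other 6 lines. For Cdkn2c they had 32.1 and 49.6 CPM, against 4.91 to 10.4 CPM. In Cdkn2b, Trp53inp1, Sesn2 and Bax at least 1 of these lines lay within the range of the others.

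The same lines were low in Trp53, with 26.2 CPM in KO MEFs 3 and 29.5 CPM in WT MEFs 2, against 46.9 to 57.3 CPM in the other 6 MEF lines. They were also low in Cdk6, a target of the INK4 proteins, with 70.9 and 62.6 CPM against 184 to 254 CPM. Their Mki67, the gene of a protein found in dividing cells, was the highest of the MEFs, with 546 and 469 CPM, but KO MEFs 2 came near it with 411 CPM, and the other 5 lines had 206 to 265 CPM. The proliferation genes summed to 5548 CPM in KO MEFs 3 and 5212 CPM in WT MEFs 2, and to 5488 CPM in KO MEFs 2, against 3221 to 3566 CPM in the remaining 5. KO MEFs 2 had the lowest Cdkn2a and Trp53inp1 of the MEFs, but 636 CPM of Cdkn1a. Macrophage and blood genes summed to 19.4 CPM in KO MEFs 3 and 186 CPM in WT MEFs 2, the lowest and the highest of the MEFs. Over all genes, the deviations of these 2 lines from their group means correlated at r = 0.71, the highest of the 15 pairs of a KO with a WT MEF line, which describes the libraries and has no test. These features were picked after the values were seen, and their part in the members' levels was not tested.

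**Figure D4:**
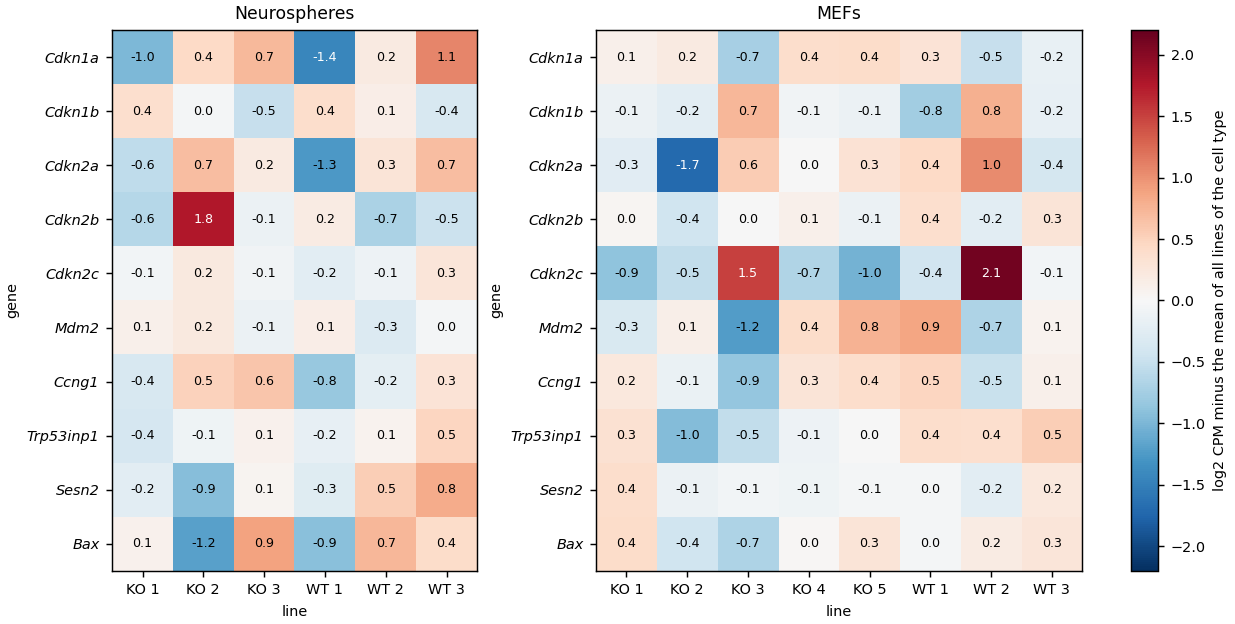
The log2 CPM of each gene in each line minus the mean over all lines of that cell type, for 6 neurosphere lines (left) and 8 MEF lines (right), KO before WT; red is above and blue below that mean. In MEFs the columns KO 3 and WT 2 lie beyond the other 6, on the same side, for Cdkn1a, Cdkn1b, Cdkn2a, Cdkn2c, Mdm2 and Ccng1. In neurospheres KO 1 and WT 1 lie on the same side of the mean for all genes except Cdkn2b and Bax.

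In neurospheres the lowest line in Cdkn1a, Cdkn2a, Ccng1 and Trp53inp1 was line 1, in KO and in WT alike. The same lines were the highest of their genotype in Cdkn1b, with 229 CPM in KO neurospheres 1 and 230.2 CPM in WT neurospheres 1. Line numbers are labels without a stated pairing, so that 1 in KO and 1 in WT are known to share only a number. Cell cycle genes also varied widely between neurosphere lines: Ccnd1, for cyclin D1, had 290, 78.8 and 1487 CPM in KO neurospheres and 98.4, 536 and 1379 CPM in WT neurospheres. Mki67 had 76.0, 6.01 and 285 CPM in KO neurospheres and 53.6, 150 and 170 CPM in WT neurospheres. KO neurospheres 2, the lowest line in Mki67 and in summed proliferation genes, with 289 CPM, was the highest neurosphere line in Cdkn2b and the lowest in Sesn2 and Bax, each chosen here after its values were seen.

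Correlations over lines put numbers on these patterns. Cdkn1a was set against the other 9 members on the log2 CPM scale in each cell type, which gives 18 relations, with exact two-sided permutation tests and Benjamini-Hochberg adjustment over the 18. In the 8 MEF lines Cdkn1a correlated with Mdm2 (Pearson r = 0.91, exact p = 0.00169, adjusted 0.0304; Spearman rho = 0.905, exact p = 0.00456, adjusted 0.0821). It correlated with Ccng1 (r = 0.905, exact p = 0.00469, adjusted 0.0382; rho = 0.857, exact p = 0.0107, adjusted 0.0964). With Cdkn2c the relation was inverse (r = -0.908, exact p = 0.00637, adjusted 0.0382; rho = -0.81, exact p = 0.0218, adjusted 0.098). With Cdkn1b it was inverse but did not pass (r = -0.827, exact p = 0.0179, adjusted 0.0537; rho = -0.476, exact p = 0.243, adjusted 0.486). With genotype means subtracted, Cdkn1b was under the threshold (r = -0.877, permutation p = 0.00761, adjusted 0.0228). Values with group means subtracted are not free to be exchanged between lines. Such p-values are therefore not exact and may be too small.

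KO MEFs 3 and WT MEFs 2 were the lines farthest from the median of Cdkn1a. Among the other 6 MEF lines r was 0.65 for Mdm2 (exact p = 0.157), 0.46 for Ccng1 (exact p = 0.365), -0.68 for Cdkn2c (exact p = 0.139) and -0.12 for Cdkn1b (exact p = 0.825). Leaving out the lines lowest in Cdkn1a narrows its range, which by itself tends to weaken r. These values therefore cannot decide whether the relations depend on KO MEFs 3 and WT MEFs 2. In the remaining 5 relations in MEFs r lay between -0.40 and 0.37 and did not pass.

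In the 6 neurosphere lines Cdkn1a went with Cdkn2a (r = 0.941, exact p = 0.0111, adjusted 0.05; rho = 0.714, exact p = 0.136, adjusted 0.306) and with Ccng1 (r = 0.888, exact p = 0.0153, adjusted 0.0537; rho = 0.829, exact p = 0.0583, adjusted 0.175). Trp53inp1 gave r = 0.82 (exact p = 0.0389, adjusted 0.0875; rho = 0.886, exact p = 0.0333, adjusted 0.12). Cdkn1b gave r = -0.894 (exact p = 0.0292, adjusted 0.075; rho = -0.943, exact p = 0.0167, adjusted 0.098). Of these adjusted values 0 were below 0.05. With genotype means subtracted, Ccng1 (r = 0.987, permutation p = 0.00278, adjusted 0.0125), Trp53inp1 (r = 0.963, permutation p = 0.00278, adjusted 0.0125) and Cdkn2a (r = 0.944, permutation p = 0.0111, adjusted 0.0286) were under the threshold. These p-values, too, are not exact and may be too small. Mdm2, close to Cdkn1a in MEFs, had r = -0.42 in neurospheres (exact p = 0.401, adjusted 0.548). Without KO neurospheres 1 and WT neurospheres 1, which leaves 4 lines and no test, r was 0.39 for Cdkn2a, 0.51 for Ccng1, 0.79 for Trp53inp1 and -0.82 for Cdkn1b. Whether the relation to Mdm2 differs between the cell types was not tested.

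**Figure D5:**
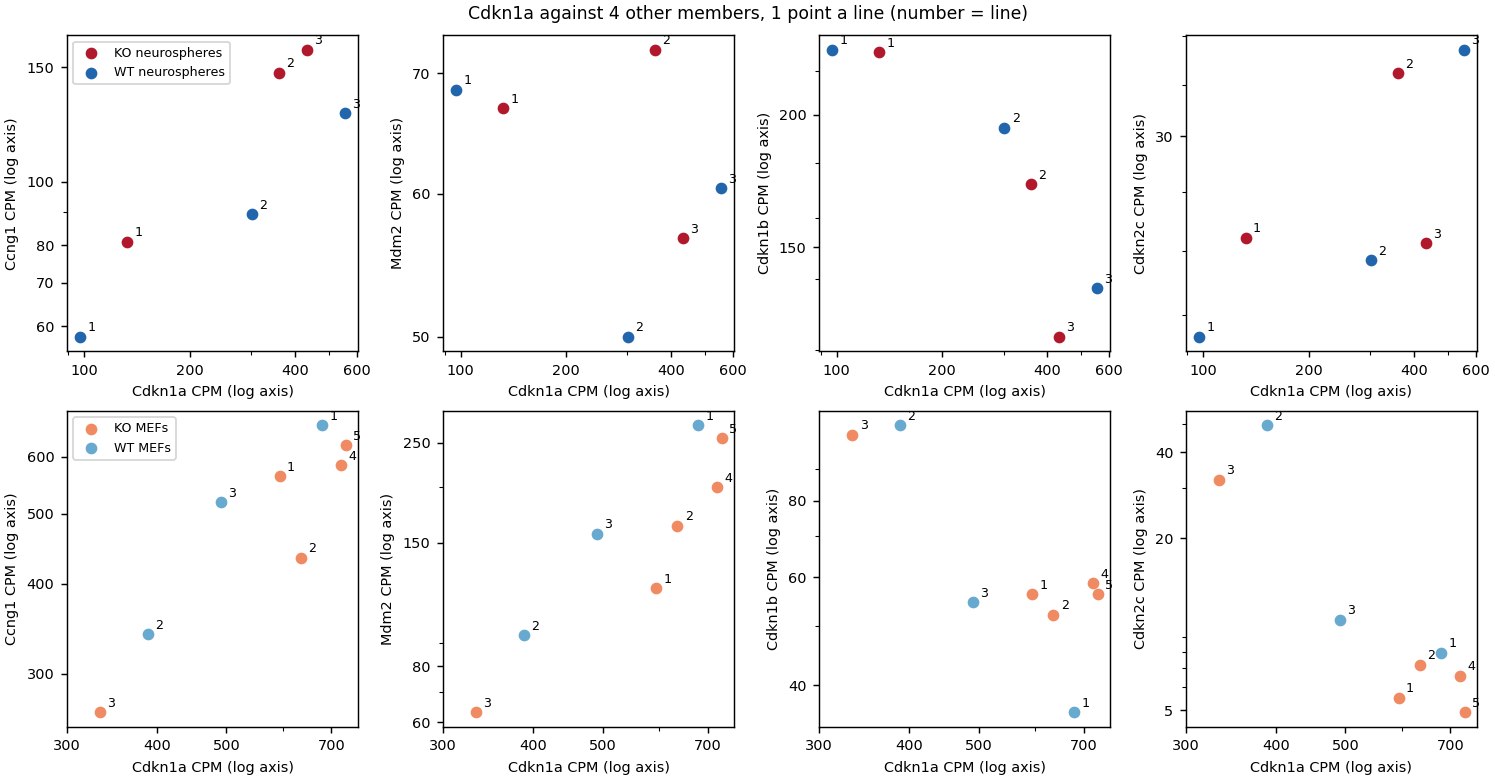
CPM of Cdkn1a (x, log axis) against Ccng1, Mdm2, Cdkn1b and Cdkn2c (y, log axes) in the neurosphere lines (top) and the MEF lines (bottom); each point is 1 line and the digit is its number. In MEFs the lines KO 3 and WT 2 lie at the low end of Cdkn1a, with 334 and 389 CPM.

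Some genes outside these lists followed Cdkn1a or Mdm2 more closely, as found by Pearson r of log2 CPM among genes with a mean of at least 20 CPM. In MEFs, of 6481 genes compared over 8 lines, those most like Cdkn1a were Pak1 (r = 0.99), Ttc19 (0.99), Ubap2 (0.98), Ube2j2 (0.97) and Dcbld2 (0.97). Among those most like Mdm2 were Sptlc2 (0.99), Ank (0.98), Pxdc1 (0.98) and Bag2 (0.97). In neurospheres, of 6592 genes over 6 lines, the genes most like Cdkn1a were Tmem185b (0.99), Prmt3 (0.98), Necap2 (0.96), Exoc4 (0.96) and Aars (0.96). Those most like Mdm2 were Ccnc (1.00), Lrig1 (0.99), Lrif1 (0.99), Pum2 (0.99) and Enpp2 (0.99). The 2 cell types had 0 of these names in common, and with so few lines such values are a description of these libraries. How many of all genes reach the r of the members with Cdkn1a was not counted. The members' relations therefore cannot be called particular to p53 targets or CDK inhibitors.

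Transcripts were quantified singly in the deposited files, and for the members the split among transcripts was less steady than the sum for the gene. Cdkn2a-201, whose annotated 3′ end lies beyond that of Cdkn2a-202, took 98.2% to 100% of Cdkn2a reads in each library. That share cannot be read as the share of p16 transcripts. Trp53inp1-202, a transcript that shares its final exon with Trp53inp1-201, took 47.1% of Trp53inp1 reads in KO neurospheres 1 and 57.4% in KO neurospheres 2, and 0% in the other 12 libraries. Cdkn2c-201 took 58.4% of Cdkn2c reads in WT MEFs 2, 82.8% in KO MEFs 1 and 0% in the other 6 MEF lines, against 60.2% to 94.8% in neurospheres. Its final exon has the same coordinates as that of Cdkn2c-202. Cdkn1a-205 took 41.7% of Cdkn1a reads in KO neurospheres 2, 55.6% in WT neurospheres 2 and 94.3% to 100% in the other 12 libraries. Tags in a shared final exon cannot tell such transcripts apart, and the genes' sums were used for all comparisons. Of annotated neighbours, the read-through gene Gm45808 shares 192 exonic bases with Bax on the same strand and held 0 counts.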

How the data were processed

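RNA from 14 primary lines was read with the QuantSeq 3′ forward kit, a kit that reads from the poly(A) end and keeps the strand, per the labels' protocols. The authors deposited expected counts for each transcript. Salmon 1.1.0 and, without a version, edgeR are named in the submitters' processing notes. Salmon's options and transcript set were not stated. Of 116945 transcripts, 115560 matched GENCODE M21 (GRCm38) by version and length and 385 by identifier; 1000 unmatched ones, with 0.251% to 0.425% of reads, were left out. Expected counts were summed for each gene and rounded.

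Each comparison was fitted on all genes with edgeR 4.0.16 in R 4.3.3 (TMM, default filter on low counts by group, robust quasi-likelihood test, Benjamini-Hochberg adjustment, threshold 0.05). KO against WT was fitted for each cell type, neurospheres against MEFs for each genotype, and the interaction over all libraries. Intervals are 95% intervals from these tests and cover the spread between lines. CPM values use TMM factors over all 14 libraries, and correlations use log2 CPM with a prior count of 2. The tests were tried on simulated data. Alternatives were DESeq2 1.42.0, other size factors, no filter or a stricter one (2 CPM), a replicate block, 1 fit for all libraries, and lines left out.

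The members, the gene lists and the naming rule were chosen with earlier results of these data known. The rule names all 10 members, and in each list the largest passing differences, up to 6 each way, or the 3 smallest p-values where 0 passed. Promoter sequences are from RefSeq, GRCm38.p6. Some genes that the rule would name are not reported here.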

Additional observations from a re-analysis of the deposited data

Results flagged for a closer look

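In the 5 KO MEF lines, 3 of 11 genes looked at (the members and H3f3a) had 1 line far from the other 4, by a gap larger than Dixon's 95% critical value of 0.71 of the group's range. Cdkn1b had 102.5 CPM in KO MEFs 3, and 52.1 to 58.6 CPM in the other 4 lines. Cdkn2c had 32.1 CPM in KO MEFs 3, and 4.91 to 7.20 CPM in the others. Sesn2 had 37.6 CPM in KO MEFs 1, and 26.0 to 27.5 CPM in the others. Chance marks about 1 in 20 groups in this way, and groups of 3 lines were not looked at.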

How the results depend on the processing

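Of the members, Ccng1, Cdkn2b and Trp53inp1 kept their call and direction between cell types, in both genotypes, under each alternative that was run; 0 members were called in KO against WT, or in the interaction, under any of them. Counts of called genes moved as follows: in KO against WT in MEFs, 3 with KO MEFs 3 and WT MEFs 2 left out together; in neurospheres, 7 with DESeq2, 2 without a filter and 3 with KO neurospheres 3 and WT neurospheres 2 left out together; in the interaction, 3 with DESeq2. Without those neurosphere lines, 1 member was called higher among WT lines. Log2 values near 0 changed sign: without KO MEFs 3 and WT MEFs 2, Cdkn1b was 0.29 and Sesn2 -0.0606 in MEFs, and Sesn2 was -0.0786 between WT cell types. Without the neurosphere lines, Cdkn1b was 0.137 in neurospheres and 0.131 in the interaction, Bax was -0.143 in the interaction, and Sesn2 was -0.0139 between WT cell types. Among KO lines Cdkn2a was -0.00392 without a filter and -0.00132 with all libraries in 1 fit, and Sesn2 lost its call without a filter (adjusted p = 0.0636 by edgeR). The causes were not tested.

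Leaving out 1 line at a time gave these ranges. In KO against WT in MEFs they were -0.305 to 0.516 for Cdkn1b, -1.90 to 0.261 for Cdkn2c, -0.42 to 0.351 for Mdm2, -0.254 to 0.201 for Ccng1 and -0.0855 to 0.163 for Sesn2. In neurospheres 0 to 2 genes were called, and the ranges were -0.465 to 0.632 for Cdkn1a, -0.313 to 0.0979 for Cdkn1b, -0.305 to 0.495 for Cdkn2a, -0.0819 to 1.54 for Cdkn2b (5 fits, as it was not tested without WT neurospheres 1), -0.0606 to 0.214 for Cdkn2c and -0.671 to 0.367 for Bax. In the interaction they were -0.694 to 0.411 for Cdkn1a, -0.602 to 0.203 for Cdkn1b, -0.188 to 1.93 for Cdkn2c, -0.228 to 0.556 for Mdm2 and -0.486 to 0.533 for Bax. Among WT lines 1 to 3 members were called higher, with -0.103 to 1.575 for Cdkn2c, -0.193 to 0.304 for Sesn2 and -0.593 to 0.147 for Bax. Among KO lines 2 to 4 members were called lower, with -0.282 to 0.29 for Cdkn2a and -0.709 to 0.317 for Bax.

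With the replicate number as a block, 0 genes were called in MEFs, where Cdkn1a was -0.0169 and Cdkn1b 0.186, and Cdkn1a was 0.12 in neurospheres. Between cell types among KO lines the block left 3295 genes called, 1 member higher and 2 lower. Same-numbered KO and WT lines correlated in their deviations at -0.542 to 0.025 in MEFs and at -0.0924 to 0.182 in neurospheres. So few values, from deviations within small groups, cannot decide whether lines were paired, and the labels state no pairing.

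Of the correlations with Cdkn1a, 3 passed, and 7 with genotype means subtracted, which added Cdkn1b in MEFs and Cdkn2a, Ccng1 and Trp53inp1 in neurospheres. How many of all genes would pass in this way was not counted. The p-values with genotype means subtracted are not exact and may be too small. Without the 2 lines farthest from its median, r was -0.184 for Cdkn2b and 0.249 for Mdm2 in neurospheres, and in MEFs 0.333 for Cdkn2a, -0.252 for Cdkn2b, -0.37 for Trp53inp1, -0.689 for Sesn2 and -0.25 for Bax. Depth limits Bax and Cdkn2b most, with 57 and 26 counts over the WT neurosphere libraries.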
